A study of Xenopus laevis with 8 samples.

Results

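RNA levels of secreted Wnt antagonists were compared between *Xenopus laevis* embryos from *wnt11b* mutant mothers and embryos from wild-type mothers. The genes were chosen by name. Every entry of the gene table that read *dkk1*, *dkk2*, *frzb*, *frzb2*, *cer1*, *sfrp1*, *sfrp2*, *sfrp5* or *notum* after removal of a final .L or .S was included, which gave 14 of 49086 entries. All 9 names had at least 1 entry. The endings .L and .S name homeologs, the paired gene copies that the allotetraploid frog *X. laevis* carries on its long and short chromosome sets. *dkk1*, *dkk2*, *frzb2*, *sfrp5* and *notum* had both copies, *frzb*, *cer1* and *sfrp2* were represented by the .S entry and *sfrp1* by the .L entry. After a filter on low counts, 12 of the 14 entries remained among 25448 tested genes, and *dkk2.L* and *sfrp5.L* were left out. In RefSeq (assembly 10.1), the separate entry *frzb-1* carries a synonym of *frzb*, LOC108712721 is *sfrp1.S* and LOC108699303 is *sfrp2.L*. These 3 entries lay outside the naming rule and were added after their values had been seen.

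M/Z embryos, labelled as maternal-zygotic *wnt11b* mutants, came from eggs of mutant females fertilised with mutant sperm. The controls, +/Z embryos, came from eggs of wild-type females fertilised with mutant sperm and were heterozygous. The mutation is a frameshift deletion in exon 1 of *wnt11b.L*, made with CRISPR/Cas9 in the inbred J-strain, and both genotypes therefore carried the allele from the father. Embryos were collected at stage 9, the late blastula, and at stage 10.5, the early to middle gastrula. Each of the 4 groups held 2 replicates, each a pool of 3 whole embryos, giving 8 libraries. The females behind each pool are not named in the sources used here, so that p-values measure the spread between these pools. The mother and the genotype of the embryo differed together and cannot be told apart.

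Library totals ranged from 24720921 to 37265579 counts, and 3 counts corresponded to between 0.0715 and 0.136 CPM (counts relative to library size, scaled by the trimmed mean of M-values, TMM). The deletion leaves the transcript of the targeted gene in place, and *wnt11b.L* RNA stood at 32.2 to 37.4 CPM in M/Z and 30.1 to 42.0 CPM in +/Z embryos at stage 9, so its level does not check the genotype labels. All 8 endoderm, 7 mesoderm and 8 ectoderm marker entries were detected. The summed endoderm markers were 445 to 502 CPM in M/Z and 688 to 749 CPM in +/Z embryos at stage 9, and 1244 to 1731 CPM against 2062 to 2107 CPM at stage 10.5. For mesoderm the sums were 30.9 to 31.0 CPM against 45.1 to 75.2 CPM, and 355 to 461 CPM against 463 to 490 CPM. The ectoderm sums overlapped between genotypes, at 1091 to 1181 CPM against 1045 to 1171 CPM at stage 9. At stage 10.5 they were 1709 to 1848 CPM against 1703 to 1794 CPM. Along the first principal component of all tested genes other than the antagonists (54.5% of the variance), with the +/Z stage 9 mean at 0% and the +/Z stage 10.5 mean at 100%, the M/Z stage 10.5 libraries stood at 85.5% (replicate 1) and 58.2% (replicate 2). The M/Z stage 9 libraries stood at -8.80% and -6.66%. The part of this position in the results below was not tested.

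Secreted Wnt antagonists act outside the cell and limit Wnt signalling by several routes. Dickkopf proteins bind the Lrp5 and Lrp6 co-receptors, the Frizzled-related proteins (Frzb, Frzb2 and the Sfrp proteins) carry a cysteine-rich domain like that of Frizzled receptors and bind Wnt ligands, and Notum is an enzyme that removes the lipid Wnt needs to engage its receptor. Cerberus, encoded by *cer1*, binds Nodal and BMP ligands as well as Wnt. In the *Xenopus* gastrula, *dkk1*, *frzb*, *frzb2* (also called *crescent*) and *cer1* are transcribed in the Spemann organiser and the anterior endomesoderm beneath the future head, and their products are known for protecting head tissue from Wnt signals.

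At stage 9, the RNA of *sfrp1.L* was higher and the RNAs of *sfrp2.S*, *notum.L* and *notum.S* were lower in M/Z than in +/Z embryos. These 4 were the antagonists that passed the threshold, an adjusted p below 0.05 by the quasi-likelihood test of edgeR with Benjamini-Hochberg adjustment over all tested genes. They were 4 of 12 tested, against 11.9% of all tested genes. 1 was higher (background 6.01%) and 3 were lower (background 5.93%). At stage 10.5, *sfrp1.L* was again higher, and *frzb.S*, *cer1.S*, *sfrp2.S* and *notum.S* were lower. These were 5 of 12, against 13.1% of all tested genes, with 1 higher (background 6.68%) and 4 lower (background 6.39%). The median log2 fold change of the 12 was -0.19 at stage 9 and -1.07 at stage 10.5, against 0 and 0.02 over all tested genes. Over the mean of both stages, 4 of 12 passed, against 24% of all genes. They were *sfrp1.L*, *sfrp2.S*, *notum.L* and *notum.S*, the first higher and the others lower. The *notum.L* call over both stages (-0.60, adjusted p = 0.023) was lost with library totals (0.064), against a minimum log2 change of 0.5 (0.42) and without replicate 1 or 2 of M/Z stage 9 (0.12 and 0.056), replicate 1 of +/Z stage 9 (0.11) or replicate 1 of +/Z stage 10.5 (0.061). The libraries of the genotypes did not overlap for 9 of 12 antagonists at each stage, against 63.5% of all tested genes at stage 9 and 53.7% at stage 10.5. With so few entries these shares are descriptions.

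**Figure D1:**
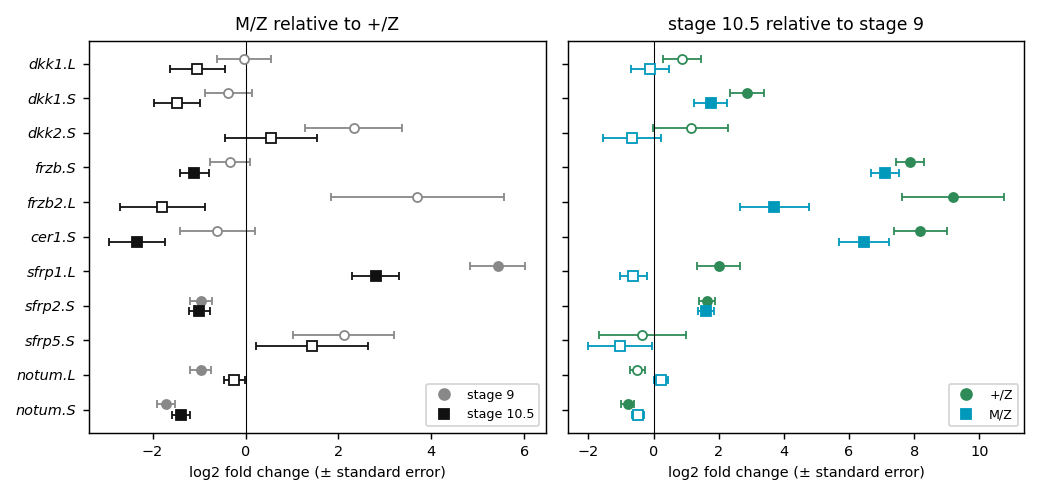
Log2 fold changes (horizontal axes) with standard errors (bars) of 11 tested antagonists, from M/Z relative to +/Z embryos (left) and from stage 10.5 relative to stage 9 (right); filled symbols passed an adjusted p of 0.05 and open symbols did not. *sfrp1.L* lies to the right of 0 at both stages in the left panel and *notum.S* to the left, while *cer1.S* and *frzb.S* moved furthest up between stages in M/Z embryos; *frzb2.S*, at 0 counts in every stage 9 library, is not drawn.

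The entry furthest above controls was *sfrp1.L*, a copy of the gene for secreted Frizzled-related protein 1. Blastula libraries of M/Z held 271 and 217 of its counts (6.46 and 6.11 CPM in replicates 1 and 2). Those of +/Z held 1 and 7 (0.0322 and 0.267 CPM). By stage 10.5 it stood at 4.15 and 4.01 CPM in M/Z and at 0.535 and 0.635 CPM in +/Z embryos. Both M/Z libraries were far above both +/Z libraries at each stage, and the replicates of M/Z lay close together. The log2 fold change was 5.42 (s.e. 0.59, adjusted p = 0.00036) at stage 9, or 42.9-fold. At stage 10.5 it was 2.80 (s.e. 0.50, adjusted p = 0.0066), or 6.95-fold. The difference between these 2 effects was -2.63 (s.e. 0.78, adjusted p = 0.31) and did not pass the threshold over all genes, except without a filter on low counts (-2.61, adjusted p = 0.026). In +/Z embryos, *sfrp1.L* rose from stage 9 to stage 10.5 by 2.00 on the log2 scale (s.e. 0.66, adjusted p = 0.030), from 8 counts in both libraries together. This rise did not pass without replicate 1 of +/Z stage 9 (1.11, adjusted p = 0.16), replicate 2 of +/Z stage 10.5 (1.88, adjusted p = 0.080) or either replicate of M/Z stage 9 (adjusted p = 0.052 for each). The call was also lost with library totals (1.69, adjusted p = 0.056) and with only the 4 +/Z libraries fitted (2.02, adjusted p = 0.11). Against a minimum log2 change of 0.5 it did not pass either (adjusted p = 0.052). In M/Z embryos, the change between stages was -0.62 (s.e. 0.42, adjusted p = 0.29).

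LOC108712721, the other copy of *sfrp1*, showed another pattern. Its blastula counts were 6 and 11 (M/Z) and 1 and 2 (+/Z). The gastrula counts were 170 and 61 (4.90 and 1.88 CPM) for M/Z and 47 and 48 (1.80 and 2.18 CPM) for +/Z. Replicate 2 of M/Z thus lay between the controls, and replicate 1 lay above them. Its log2 fold change did not pass at stage 9 (2.00, s.e. 0.93, adjusted p = 0.21) or at stage 10.5 (0.77, s.e. 0.54, adjusted p = 0.36). Between stages it rose in both genotypes, by 5.13 (s.e. 0.81) in +/Z and 3.90 (s.e. 0.64) in M/Z embryos.

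*sfrp2.S*, a copy of the gene for secreted Frizzled-related protein 2, was lower in M/Z embryos at both stages by a similar amount. Its levels at stage 9 were 7.75 and 9.26 CPM in M/Z and 19.1 and 13.9 CPM in +/Z embryos. At stage 10.5 they were 29.1 and 22.9 CPM in M/Z and 47.8 and 55.7 CPM in +/Z embryos. The genotypes did not overlap at either stage. The log2 fold changes were -0.96 (s.e. 0.24, adjusted p = 0.028) at stage 9 and -0.99 (s.e. 0.23, adjusted p = 0.024) at stage 10.5. With the 4 stage 10.5 libraries fitted alone, the later effect did not pass (-0.97, adjusted p = 0.070). *sfrp2.S* also rose between stages in both genotypes, by 1.65 (s.e. 0.24, adjusted p = 0.00056) in +/Z and 1.62 (s.e. 0.24, adjusted p = 0.0012) in M/Z embryos. Without replicate 2 of M/Z stage 10.5, the genotype effect at that stage was -0.82 (adjusted p = 0.12), and without replicate 2 of +/Z stage 10.5 it was -0.88 (adjusted p = 0.096). The stage 9 effect did not pass without replicate 1 of M/Z (adjusted p = 0.23), replicate 2 of M/Z (0.11) or replicate 1 of +/Z (0.25).

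LOC108699303, the other copy of *sfrp2*, had 832 and 819 counts (19.8 and 23.0 CPM) in M/Z and 577 and 453 counts (18.6 and 17.3 CPM) in +/Z embryos at stage 9. The stage 10.5 levels were 13.2 and 9.25 CPM in M/Z and 28.6 and 33.1 CPM in +/Z embryos. M/Z libraries were slightly above the controls at the first stage and well below them at the second. The log2 fold change was 0.26 (s.e. 0.23, adjusted p = 0.53) at stage 9 and -1.46 (s.e. 0.24, adjusted p = 0.0043) at stage 10.5. It rose between stages in +/Z embryos by 0.78 (s.e. 0.23, adjusted p = 0.020) and fell in M/Z embryos by 0.93 (s.e. 0.23, adjusted p = 0.014). The difference of the genotype effects between stages was -1.71 (s.e. 0.33, adjusted p = 0.13), and it passed with DESeq2 (-1.73, adjusted p = 0.00086). When 1 library was left out, this difference lay between -1.99 and -1.47. The rise in +/Z did not pass without either replicate of +/Z stage 9 or replicate 2 of +/Z stage 10.5 (adjusted p between 0.0849 and 0.128), nor the fall in M/Z without either replicate of M/Z stage 9 (0.0551 and 0.0977).

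Both copies of *notum*, which encodes the Wnt deacylase, were well expressed at the blastula stage. *notum.S* had 26.3 and 20.2 CPM in M/Z and 70.8 and 80.9 CPM in +/Z embryos at stage 9. In gastrulae the levels were 16.4 and 16.9 CPM in M/Z and 43.5 and 43.9 CPM in +/Z embryos. Every M/Z library was below every +/Z library of either stage, and the replicates at stage 10.5 were almost equal. The log2 fold change was -1.70 (s.e. 0.19, adjusted p = 0.00049) at stage 9, which is 3.26-fold lower. For the later stage it was -1.39 (s.e. 0.19, adjusted p = 0.0021), which is 2.62-fold lower. Between stages, *notum.S* fell in +/Z embryos by 0.80 on the log2 scale (s.e. 0.19, adjusted p = 0.0074), a call lost without replicate 2 of +/Z stage 9 (-0.72, adjusted p = 0.066). In M/Z embryos the change was -0.48 (s.e. 0.19, adjusted p = 0.081).

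*notum.L* had 17.8 and 21.5 CPM in M/Z and 42.2 and 34.6 CPM in +/Z embryos at stage 9. Its stage 10.5 levels were 23.5 and 22.6 CPM in M/Z and 31.9 and 22.6 CPM in +/Z embryos. The genotypes were apart at stage 9 and overlapped at stage 10.5. The log2 fold change was -0.97 (s.e. 0.23, adjusted p = 0.024) at stage 9 and -0.24 (s.e. 0.23, adjusted p = 0.51) at stage 10.5. The difference between these effects was 0.72 (s.e. 0.32, adjusted p = 0.45). Between stages, the change was -0.49 (s.e. 0.23, adjusted p = 0.10) in +/Z, or -0.78 (adjusted p = 0.036) without replicate 1 of +/Z stage 10.5, and 0.23 (s.e. 0.23, adjusted p = 0.48) in M/Z embryos. The stage 9 call was lost when any 1 of the 4 stage 9 libraries was left out, with adjusted p between 0.072 and 0.22. It also failed a test against a minimum log2 change of 0.5 (adjusted p = 0.11), as did *sfrp2.S* at stage 9 (0.12) and stage 10.5 (0.10). With homeologs summed, *notum* was lower in M/Z at stage 10.5 (-0.84, adjusted p = 0.0090, edgeR). The sum also fell between stages in +/Z embryos (-0.70, adjusted p = 0.0053).

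**Figure D2:**
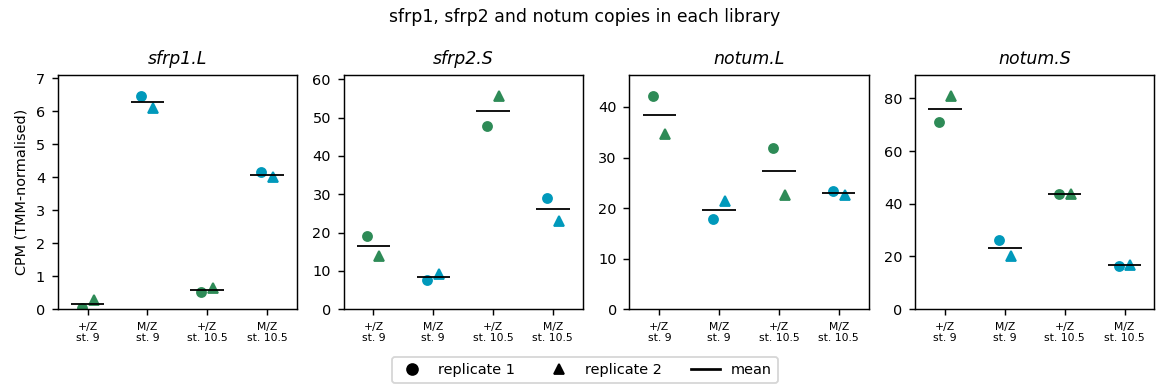
CPM (vertical axes, TMM-normalised) of *sfrp1.L*, *sfrp2.S*, *notum.L* and *notum.S* in each of the 8 libraries, grouped by genotype and stage; circles are replicate 1, triangles replicate 2 and lines the group means. M/Z libraries (blue) lie above +/Z libraries (green) for *sfrp1.L* and below them for *sfrp2.S* and *notum.S* at both stages, and the groups overlap for *notum.L* at stage 10.5.

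Of the organiser genes, the *cer1*, *frzb* and *frzb2* entries had low counts at stage 9 and rose by stage 10.5 in +/Z embryos. The *dkk1* copies had more counts at stage 9 (113 to 207 per library). Of the *dkk1* copies, only *dkk1.S* had a rise that passed in the fit of all 8 libraries. *cer1.S*, which encodes Cerberus, had 1.80 and 1.03 CPM in +/Z embryos at stage 9 and 432 and 404 CPM at stage 10.5. In M/Z embryos it had 0.930 and 0.957 CPM at stage 9 and 142 and 24.4 CPM at stage 10.5. Both M/Z gastrula libraries were below both controls, and the second was by far the lower. The rise between stages was 8.18 on the log2 scale (s.e. 0.81, adjusted p = 9.4e-05) in +/Z and 6.46 (s.e. 0.77, adjusted p = 0.00037) in M/Z embryos. At stage 10.5, *cer1.S* was lower in M/Z by 2.33 on the log2 scale (log2 fold change -2.33, s.e. 0.60, adjusted p = 0.033), or 5.03-fold. At stage 9 the log2 fold change was -0.60 (s.e. 0.80, adjusted p = 0.69), and the difference between the stages was -1.73 (s.e. 0.99, adjusted p = 0.53). With the 4 stage 10.5 libraries fitted alone, the effect at that stage did not pass (-2.31, adjusted p = 0.071). It also failed against a minimum log2 change of 0.5 (adjusted p = 0.061). The stage 10.5 call was lost when any 1 of the 4 +/Z libraries was left out, with log2 fold changes between -2.38 and -2.27 and adjusted p between 0.0527 and 0.0703. Leaving out replicate 1 of M/Z stage 10.5 moved the value to -4.09, and leaving out replicate 2 moved it to -1.55, with the call kept in both cases.

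*frzb.S* encodes a Frizzled-related protein that binds Wnt8 in *Xenopus*. It had 1.68 and 0.955 CPM in +/Z and 0.858 and 1.27 CPM in M/Z embryos at stage 9. In gastrulae *frzb.S* reached 270.1 and 356 CPM in +/Z and 191 and 100.1 CPM in M/Z embryos. The genotypes overlapped at stage 9 and were apart at stage 10.5. The rise between stages was 7.87 (s.e. 0.43, adjusted p = 1.3e-05) in +/Z and 7.1 (s.e. 0.42, adjusted p = 1.8e-05) in M/Z embryos. At stage 10.5 the log2 fold change was -1.11 (s.e. 0.31, adjusted p = 0.044), and at stage 9 it was -0.34 (s.e. 0.43, adjusted p = 0.68). This call was close to the threshold and was kept in 8 of 17 alternative analyses. It was lost without either replicate of M/Z stage 9 or of +/Z stage 9 (adjusted p between 0.0606 and 0.0640), without replicate 2 of M/Z stage 10.5 (-0.70, adjusted p = 0.19) and without replicate 2 of +/Z stage 10.5 (-0.89, adjusted p = 0.17).

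The entry *frzb-1* may share reads with *frzb.S*, and how they were divided in the counting is not given in the sources used here. It had 9 and 3 counts in +/Z and 9 and 10 counts in M/Z embryos at stage 9. By stage 10.5 it reached 62.2 and 75.5 CPM in +/Z and 35.9 and 7.86 CPM in M/Z embryos. Replicate 2 of M/Z was again the lowest of the 4 gastrula libraries. The log2 fold change at stage 10.5 was -1.65 (s.e. 0.54, adjusted p = 0.072). When 1 library was left out, it lay between -3.12 (without replicate 1 of M/Z stage 10.5) and -0.93.

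*frzb2.L*, a copy of *crescent*, had 3 and 0 counts in +/Z and 31 and 25 counts in M/Z embryos at stage 9. The M/Z libraries were higher at this stage, with a ratio of summed counts, each relative to the summed library sizes, of 13.8 (95% interval 4.48 to 68.8, counting error only). The test across genes did not pass (log2 fold change 3.69, s.e. 1.86, adjusted p = 0.25), but it did pass when either replicate of M/Z stage 10.5 was left out of the fit (adjusted p = 0.0074 and 0.0079), when the stage 9 libraries were fitted alone (0.0023) and without a filter on low counts (2.0e-07). At stage 10.5, *frzb2.L* had 1079 and 538 counts in +/Z embryos (41.2 and 24.4 CPM), 630 counts in replicate 1 of M/Z (18.2 CPM) and 26 counts in replicate 2 (0.801 CPM). Replicate 2 of M/Z therefore stood at the level of the M/Z blastulae, while the other 3 gastrula libraries were far above theirs. The log2 fold change at stage 10.5 was -1.79 (s.e. 0.92, adjusted p = 0.22). The difference of the genotype effects between stages was -5.48 (s.e. 2.03, adjusted p = 0.39). It passed without a filter on low counts (-5.47, adjusted p = 2.8e-12), a setting that raised such calls over all genes from 12 to 915. It was -9.04 without replicate 1 of M/Z stage 10.5, and lay between -9.30 and -4.54 over all fits that left out 1 library. In +/Z embryos the same ratio of stage 10.5 to stage 9 was 639.7 (95% interval 218 to 3105, counting error only, from 3 counts at stage 9), and the rise passed the test (adjusted p = 0.0012). In M/Z embryos the log2 change between stages was 3.71 (s.e. 1.07, adjusted p = 0.025), and without replicate 1 of stage 10.5 it was 0.14 (adjusted p = 0.90). This rise was also lost without either replicate of M/Z stage 9 (adjusted p = 0.13 and 0.11).

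*frzb2.S* had 0 counts in all 4 stage 9 libraries. In gastrulae, the +/Z pools held 25 and 9 counts and the M/Z pools 2 and 0. In +/Z gastrulae it was at least 13.4-fold higher than at stage 9, with that group set to the floor of 3 counts over both libraries (adjusted p = 0.013, or 0.083 and 0.078 without replicate 1 or 2 of +/Z stage 9). The ratio of M/Z to +/Z at stage 10.5, formed from summed counts and summed library sizes, was 0.0422 (95% interval 0.00492 to 0.165, counting error only), and the test across genes gave an adjusted p of 0.064, or 0.049 without a filter on low counts.

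The copies of *dkk1*, the Dickkopf gene known as a head inducer in *Xenopus*, differed from each other in their rise between stages. *dkk1.S* had 3.90 and 4.58 CPM in +/Z and 3.38 and 3.18 CPM in M/Z embryos at stage 9. Gastrula levels were 23.3 and 38.3 CPM in +/Z and 17.4 and 4.78 CPM in M/Z embryos. It rose in +/Z by 2.86 (s.e. 0.52, adjusted p = 0.0019) and in M/Z by 1.75 (s.e. 0.51, adjusted p = 0.026). M/Z gastrulae were below both controls, at a log2 fold change of -1.47 (s.e. 0.49, adjusted p = 0.077). The M/Z rise did not pass without replicate 1 of M/Z stage 10.5 (0.53, adjusted p = 0.32) or without either M/Z stage 9 replicate (adjusted p = 0.12 for each).

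*dkk1.L* had 5.06 and 4.39 CPM in +/Z and 3.41 and 5.82 CPM in M/Z embryos at stage 9. Its gastrula levels were 8.37 and 9.12 CPM in +/Z and 7.12 and 1.39 CPM in M/Z embryos. Replicate 2 of M/Z stage 10.5 had the lowest level of all 8 libraries. In the fit of all 8 libraries with the filter on low counts, no comparison of *dkk1.L* passed. The log2 fold change was -0.04 (s.e. 0.58) at stage 9 and -1.04 (s.e. 0.58, adjusted p = 0.26) at stage 10.5. The change between stages was 0.89 (s.e. 0.58, adjusted p = 0.24) in +/Z and -0.11 (s.e. 0.58, adjusted p = 0.91) in M/Z embryos. The genotype effects at stage 10.5 depended on single libraries. When 1 library was left out, the log2 fold change lay between -2.65 and -0.28 for *dkk1.L* and between -2.68 and -0.81 for *dkk1.S*. For *frzb2.L* it lay between -5.34 and -0.84. The lowest value of each came without replicate 1 of M/Z stage 10.5, where replicate 2 alone stood for that group. With all 8 libraries kept but no filter on low counts, the adjusted p was 0.033 for *dkk1.L*, 4.2e-05 for *dkk1.S* and 5.7e-07 for *frzb2.L*. The log2 fold changes hardly moved, at -1.01, -1.45 and -1.77 against -1.04, -1.47 and -1.79 with the filter. Over all genes, that setting raised the calls for the difference between stages from 12 to 915. These adjusted p-values therefore show how far the calls depend on the filter. The effect of *dkk1.S* also passed with DESeq2 (-1.48, adjusted p = 0.011). The change of *dkk1.L* between stages in M/Z was -1.74 without replicate 1 of M/Z stage 10.5 and 0.62 without replicate 2. Its rise in +/Z was 0.87 when either of these replicates was left out of the fit. With only the 4 +/Z libraries fitted, that rise was 0.92 and passed by edgeR (adjusted p = 0.026).

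**Figure D3:**
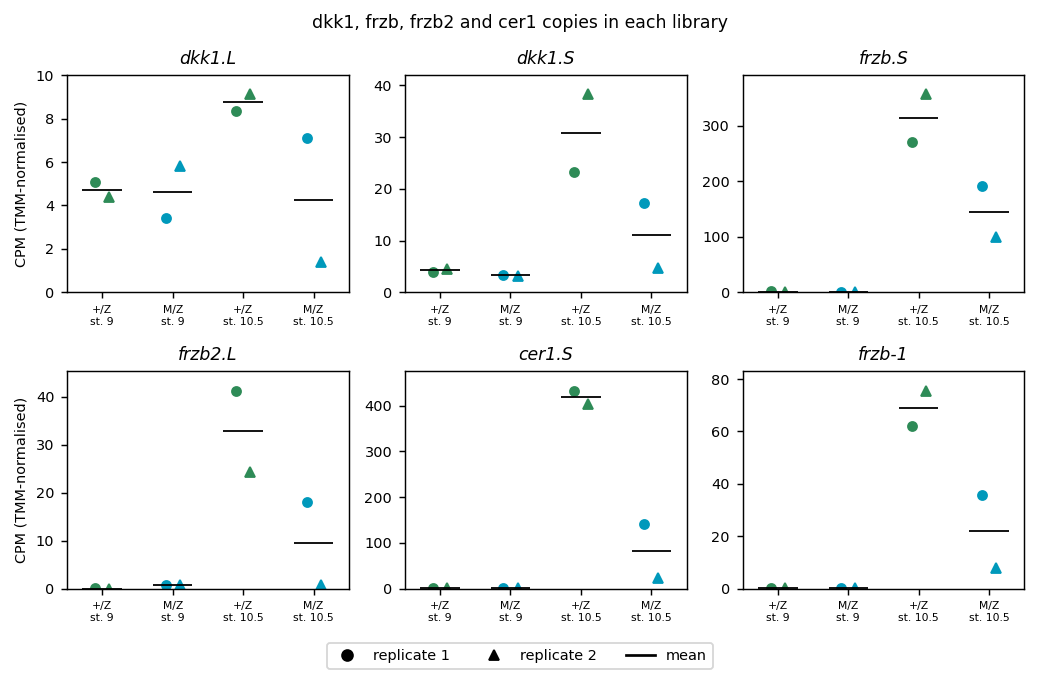
CPM (vertical axes, TMM-normalised) of *dkk1.L*, *dkk1.S*, *frzb.S*, *frzb2.L*, *cer1.S* and *frzb-1* in each of the 8 libraries; circles are replicate 1, triangles replicate 2 and lines the group means. Both M/Z stage 10.5 libraries (blue) lie below both +/Z stage 10.5 libraries (green) in every panel, as in 53.7% of all tested genes for either direction, and replicate 2 is the lower of the pair throughout.

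The M/Z gastrula pools differed from each other in the organiser genes more than in *sfrp1.L*, *sfrp2.S* and both *notum* copies. Replicate 1 over replicate 2 was 5.13 for *dkk1.L*, 3.63 for *dkk1.S*, 1.91 for *frzb.S*, 22.7 for *frzb2.L* and 5.80 for *cer1.S*. Between the +/Z gastrula pools the same ratios were 0.918, 0.608, 0.758, 1.69 and 1.07. In M/Z gastrulae, the absolute log2 gap between replicates was smaller than that of *dkk1.L* in 98.9% of tested genes, than that of *dkk1.S* in 97.4%, *frzb2.L* in 99.9%, *cer1.S* in 99.2% and *frzb.S* in 83.9%. For *sfrp1.L*, *sfrp2.S*, *notum.L* and *notum.S* the shares were 8.25%, 47.2%, 9.18% and 7.36%. Wide gaps were not limited to the organiser genes. Replicate 1 over replicate 2 was 2.61 for LOC108712721 (170 and 61 counts) and 1.43 for LOC108699303. The shares for *sfrp5.S* and *dkk2.S*, both from few counts, were 90.1% and 79.0%. The lower pool for the organiser genes, replicate 2, was also the library nearer to stage 9 on the stage axis, at 58.2%. Its *cer1.S* level was 5.85% of the +/Z stage 10.5 mean, its *dkk1.S* level 15.5%, its *dkk1.L* level 15.9%, its *frzb.S* level 32.0% and its *frzb2.L* level 2.44%. In replicate 1, at 85.5% on the axis, the same genes stood at 33.9%, 56.4%, 81.4%, 60.9% and 55.3%. *notum.S* stood at 37.5% and 38.7% in replicates 1 and 2. In pools of whole embryos, fewer expressing cells and less RNA per cell cannot be told apart.

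**Figure D4:**
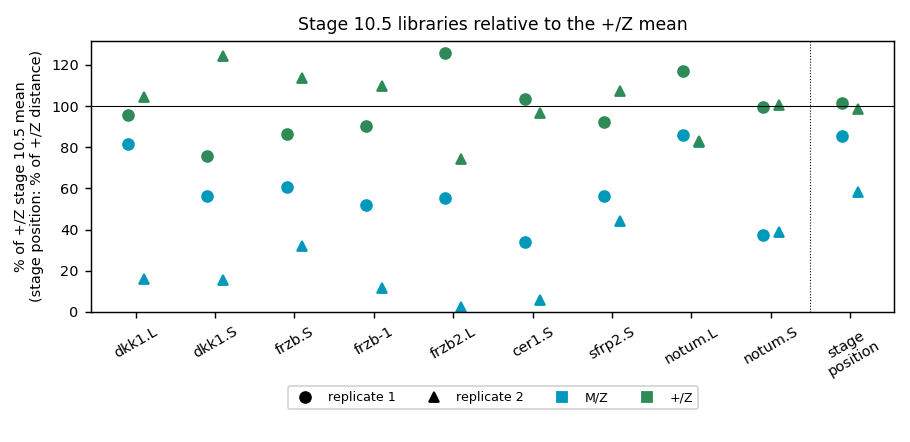
Level of 9 entries in each stage 10.5 library as a percentage of the +/Z stage 10.5 mean (vertical axis), and at the far right the position of the same libraries on the stage axis, as a percentage of the distance between the +/Z stage means. Replicate 2 of M/Z (blue triangles) lies at 2.44% to 32.0% for the *dkk1*, *frzb*, *frzb2* and *cer1* entries, whereas both M/Z replicates of *notum.S* lie at 37.5% and 38.7%.

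Across all antagonists, 8 of 12 changed between stages in +/Z embryos, against 46.5% of all tested genes. 7 rose (background 23.3%), namely *dkk1.S*, *frzb.S*, *frzb2.L*, *frzb2.S*, *cer1.S*, *sfrp1.L* and *sfrp2.S*, and 1 fell (background 23.2%), *notum.S*. In M/Z embryos, 5 of 12 changed, against 32.3% of all tested genes. All 5 rose (background 16.7%), namely *dkk1.S*, *frzb.S*, *frzb2.L*, *cer1.S* and *sfrp2.S*, and 0 fell (background 15.6%). The change of *notum.S* in M/Z embryos had an unadjusted p of 0.031 by edgeR and did not pass after adjustment (0.081). The genotype effect differed between stages for 0 of 12 by edgeR, against 0.0472% of all tested genes, and also for 0 by DESeq2. The smallest unadjusted p of this difference by edgeR was 0.0074, for *sfrp1.L*, followed by 0.023 for *frzb2.L*.

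The remaining entries were near the limit of detection. *dkk2.S*, whose product can weaken or strengthen Wnt signalling depending on context, was covered in blastulae by 16 and 13 counts (M/Z) and by 1 and 3 (+/Z). The M/Z libraries were above the controls, and the log2 fold change of 2.33 (s.e. 1.05, adjusted p = 0.19) did not pass. Gastrula counts were 11 and 5 (M/Z) and 7 and 1 (+/Z), and the groups overlapped (0.54, s.e. 0.99, adjusted p = 0.75). *sfrp5.S*, for secreted Frizzled-related protein 5, was covered in M/Z blastulae by 12 and 23 counts and in +/Z blastulae by 4 and 2 (2.12, s.e. 1.09, adjusted p = 0.25). Gastrula counts were 4 and 11 (M/Z) and 4 and 0 (+/Z; 1.44, s.e. 1.21, adjusted p = 0.46). *dkk2.L* had 0 counts in the 4 stage 9 libraries, 1 and 0 counts in M/Z and 0 and 5 counts in +/Z gastrulae. *sfrp5.L* had 2 counts in replicate 1 of M/Z stage 10.5 and 0 in the other 7 libraries. No genotype difference of *dkk2.S* or *sfrp5.S* passed in the fit of all 8 libraries, and that of *dkk2.S* at stage 9 passed when the 4 stage 9 libraries were fitted alone (2.35, adjusted p = 0.046).

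For the gene pairs with both copies well counted, the share of counts on the .L copy was compared between libraries as a description, and no test was made. The share depends on the length of each copy and on how reads matching both copies were divided. For *dkk1*, the stage 9 share was 50.2% and 64.7% for M/Z and 56.5% and 48.9% for +/Z embryos. At stage 10.5 it held 29.1% (95% exact binomial interval 26.1% to 32.3%) and 22.5% (16.9% to 28.9%) in M/Z, and 26.4% (23.5% to 29.6%) and 19.2% (16.9% to 21.8%) in +/Z embryos. Every share at stage 10.5 was below every share at stage 9, and the genotypes overlapped at both stages. For *notum*, the .L copy held 40.4% (38.1% to 42.7%) and 51.5% (48.9% to 54.1%) in M/Z and 37.3% (35.7% to 39.0%) and 29.9% (28.3% to 31.6%) in +/Z embryos at stage 9. In gastrulae it held 58.9% (56.2% to 61.5%) and 57.1% (54.4% to 59.9%) in M/Z and 42.3% (40.1% to 44.5%) and 34.0% (31.6% to 36.5%) in +/Z embryos. Here the genotypes did not overlap at either stage, with the .L share higher in M/Z. For *frzb2*, the .L copy held at least 97.7% of counts in every library with any.

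**Figure D5:**
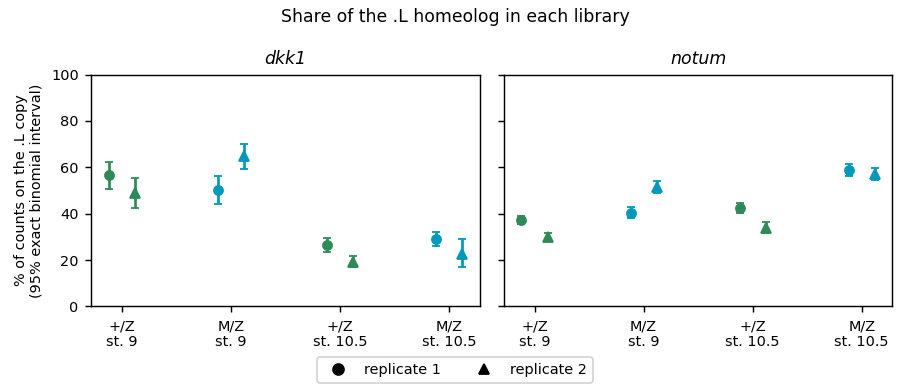
Percentage of counts on the .L copy of *dkk1* (left) and *notum* (right) in each library, with 95% exact binomial intervals (bars, counting error only); circles are replicate 1 and triangles replicate 2, blue M/Z and green +/Z. The *dkk1* share is lower at stage 10.5 than at stage 9 in both genotypes, and the *notum* share is higher in M/Z than in +/Z embryos at each stage.

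The genes with patterns most like those of the organiser antagonists were found by the root mean square difference in log2 CPM over the 8 libraries, after centring each gene. For *cer1.S*, the nearest were *frzb-1* (0.43), *darmin.L* (0.46) and *hao1.L* (0.54). For *frzb.S*, they were *otx2.L* (0.33), which encodes a head homeodomain factor, *unc93a.L* (0.37) and *kcnk6.L* (0.45). For *dkk1.S*, they were LOC108713977 (0.26), whose group means were low (at most 0.554 CPM) and whose likeness therefore depends on the prior count of 2, and the ribosomal protein genes *rps20.S* (0.29) and *rps16.L* (0.32). The stage 9 means of *darmin.L*, *hao1.L*, *unc93a.L* and *kcnk6.L* were at most 0.0483 CPM, so their likeness depends on the prior count too. *cer1.S* and *frzb.S* themselves differed by 0.76. All 8 libraries share the stage change that dominates these patterns, so these values are descriptions.

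Other genes of the pathway were read from lists by symbol. Of 18 tested entries for other Wnt inhibitors outside or at the cell surface, 1 was higher and 0 were lower in M/Z at stage 9 (11.9% of all tested genes were called), and 2 were higher and 0 lower at stage 10.5 (13.1%). These counts are near or below those shares. The stage 9 gene was *wif1.S*, for Wnt inhibitory factor 1, with 32 and 36 counts in M/Z and 1 and 2 counts in +/Z embryos (log2 fold change 3.97, s.e. 0.81, adjusted p = 0.011). In gastrulae there were 15 and 19 counts for M/Z and 4 counts in each +/Z library (1.59, s.e. 0.72, adjusted p = 0.17). The stage 10.5 genes were the *szl.L* and *szl* entries of *sizzled*, which also carries a Frizzled-like domain but acts on BMP signalling through Tolloid proteases in *Xenopus*, at 1.04 (s.e. 0.17, adjusted p = 0.0050) and 1.17 (s.e. 0.21, adjusted p = 0.0068). The *wif1.S* call was lost when any 1 stage 9 library was left out (adjusted p between 0.0658 and 0.133). The list median was 0.19 at stage 9 and 0.24 at stage 10.5.

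Of 11 tested Wnt ligand entries, stage 9 had 1 call above controls and 0 below, and stage 10.5 had 2 above and 0 below, near the 11.9% and 13.1% of all tested genes. These were *wnt5a.L* at both stages (3.71, s.e. 0.61, adjusted p = 0.0038, and 2.13, s.e. 0.60, adjusted p = 0.046) and *wnt5a.S* at stage 10.5 (1.15, s.e. 0.32, adjusted p = 0.042). Both stage 10.5 calls were lost without any 1 of the stage 9 libraries, replicate 2 of M/Z stage 10.5 or replicate 2 of +/Z stage 10.5 (adjusted p between 0.0755 and 0.239), and that of *wnt5a.S* also without replicate 1 of +/Z stage 10.5 (0.0517). Of 34 receptor, co-receptor and R-spondin entries, 2 were higher and 1 lower at stage 9, and 2 were higher and 0 lower at stage 10.5, below the same shares of all tested genes. The 3 with the smallest p all belonged to stage 9. *lgr5.S*, an R-spondin receptor, had 2.69 and 2.25 CPM in M/Z and 0.258 and 0.115 CPM in +/Z embryos (3.68, s.e. 0.56, adjusted p = 0.0025). *ror1.L*, a co-receptor for Wnt5a, was higher as well (2.79, s.e. 0.50, adjusted p = 0.0059), though not without replicate 1 of M/Z (0.0520) or replicate 1 of +/Z stage 9 (0.0683). *fzd6.S*, a Frizzled receptor, had 0.620 and 0.506 CPM in M/Z and 6.61 and 5.88 CPM in +/Z embryos (-3.46, s.e. 0.48, adjusted p = 0.0015). With homeologs summed, the stage 9 differences of *ror1* (1.33, adjusted p = 0.055), *fzd6* (-1.0, adjusted p = 0.021) and *wnt5a* (1.24, adjusted p = 0.027) were smaller. That of *lgr5* was 0.02 (adjusted p = 0.98), and *lgr5.L* had 3.62 ± 1.58 CPM in M/Z and 5.81 ± 0.171 CPM in +/Z embryos (mean ± s.d., n = 2).

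Of 25 tested entries for anterior endoderm and organiser transcription factors, 1 was higher and 5 were lower in M/Z at stage 9, and 0 were higher and 7 lower at stage 10.5, with list medians of -0.47 and -0.79. Of all tested genes, 6.01% were higher and 5.93% lower at stage 9, and 6.68% were higher and 6.39% lower at stage 10.5. The 3 with the smallest p were *otx1.S*, higher at stage 9 (3.11, s.e. 0.35, adjusted p = 0.00045), *mixer.S*, lower at both stages (-1.67, s.e. 0.22, adjusted p = 0.0013, and -1.03, s.e. 0.20, adjusted p = 0.010), and *foxa4.S*, lower at both stages (-1.38, s.e. 0.24, adjusted p = 0.0056, and -0.96, s.e. 0.23, adjusted p = 0.023). With homeologs summed, *otx1* differed by 0.08 (adjusted p = 0.85) at stage 9 and *mixer* by -0.41 (adjusted p = 0.22) at stage 10.5. The stage 10.5 call of *mixer.S* was lost without replicate 2 of M/Z stage 10.5 (0.0530), and that of *foxa4.S* without replicate 2 of M/Z or of +/Z stage 10.5 (0.128 and 0.0692). The stage 9 call of *foxa4.S* was lost without replicate 2 of M/Z or replicate 1 of +/Z stage 9 (0.0655 and 0.0630). A further 18 tested entries covered Nodal and BMP ligands, the families that Cerberus binds, together with *gdf1.L* and *gdf3.S*. Of these, 0 were higher and 4 lower at stage 9, and 0 were higher and 2 lower at stage 10.5. The shares of all tested genes that were lower were 5.93% and 6.39%. *nodal1.S* had 0 counts in both M/Z and 32 and 24 counts in the +/Z libraries at stage 9, at least 25.3-fold lower than in controls when M/Z is set to the floor of 3 counts over the group (adjusted p = 0.0015). *nodal1.L* was lower at both stages (-2.16, s.e. 0.32, adjusted p = 0.0023, and -1.03, s.e. 0.28, adjusted p = 0.039). *nodal3.2.L* was lower at both stages too (-1.41, s.e. 0.39, adjusted p = 0.045, and -2.55, s.e. 0.42, adjusted p = 0.0048). The stage 10.5 call of *nodal1.L* was lost without any 1 stage 9 library, replicate 2 of M/Z stage 10.5 or replicate 2 of +/Z stage 10.5 (adjusted p between 0.0726 and 0.182), and the stage 9 call of *nodal3.2.L* without any 1 stage 9 library (0.129 to 0.283). The difference of the genotype effect between stages passed for 0 entries of these 5 lists by edgeR.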

How the data were processed

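The 8 libraries were made with a stranded mRNA kit from pools of 3 embryos. RSEM 1.3.0 with Bowtie2, named in the submitters' processing notes, was run by the authors against an *X. laevis* genome. The deposited values are expected counts, whole numbers not normalised for library size. The annotation and the strand setting are not given in the sources used here.

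Tests used edgeR 4.0.16 (R 4.3.3) with TMM normalisation, filterByExpr and a quasi-likelihood fit of all 4 groups, which share 1 estimate of the spread, although replicates lay further apart at stage 10.5 (median gap of 0.373 and 0.374 on the log2 scale in M/Z and +/Z) than at stage 9 (0.219 and 0.230). Benjamini-Hochberg adjustment covered 25448 genes, and an adjusted p below 0.05 was called. The standard error is the log2 fold change divided by the square root of its F value. CPM values use TMM-scaled library sizes. The script was tested on simulated data. Replicate counts differed beyond sampling noise, at a chi-square of 16.4 to 52.7 per degree of freedom. Intervals and floors cover counting error only.

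The antagonists and the gene lists were chosen with earlier results of these data known. Named list genes are those past the threshold at either stage, for other Wnt inhibitors all and for other lists at most the 3 with the smallest p. The 3 nearest genes in pattern are named for the more abundant entry of *dkk1*, *frzb* and *cer1*. The alternatives changed the size factors, the filter, the tool (DESeq2 1.42.0), the libraries fitted (each left out in turn, or only the 4 compared) and the threshold (a minimum change), added a replicate block or summed homeologs. No genome of the authors' version was used, so no sequence or position is given.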

Additional observations from a re-analysis of the deposited data

How the results depend on the processing

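The calls of *sfrp1.L* and *notum.S* between genotypes, at both stages, held under every alternative that tested them. Summing homeologs joined only entries that share a name before .L and .S. LOC108712721 was therefore not added to *sfrp1.L*, and the sum of both *sfrp1* copies was not tested. Without a filter on low counts, 9 antagonists passed at stage 10.5, and 5494 of 38597 tested genes did. The count was 2 when the 4 stage 10.5 libraries were fitted alone, against 1218 of 23997 genes. Against a minimum log2 change of 0.5 it was 2 at stage 10.5 (1600 of 25448 genes) and 2 at stage 9 (1827 of 25448). Without a filter it was 7 over both stages (7678 of 38597 genes) and 3 for the difference between stages (915 of 38597). With at least 10 counts in every library it was 5 for the change in +/Z embryos (10105 of 18867 genes), where fewer entries were tested. Other causes were not tested. Leaving out 1 library gave 2 to 5 antagonists at stage 9, 2 to 8 at stage 10.5, 3 to 8 over both stages, 0 to 4 for the difference, 6 to 9 for the change in +/Z and 3 to 5 for that in M/Z embryos. Where an arm kept 1 library, it was assumed to vary like the other groups. The calls over all genes in these fits, apart from the change in +/Z embryos, are given below. Calls over all genes moved widely between these fits, for the change in +/Z embryos as well. The ranges of antagonist counts are therefore descriptions and do not show a shift apart from that of all genes.

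No comparison whose direction turned had passed its test in the main edgeR fit of all 8 libraries, with each homeolog tested separately. *dkk1.L* at stage 9 was 0.051 with library totals, 0.015 with the replicate block and -0.47 to 0.30 when 1 library was left out. With homeologs summed, *dkk2.S* at stage 10.5 was -0.10, and the change between stages in M/Z was 0.95 for *dkk1* and -0.12 for *notum*. Leaving out 1 library gave -0.67 to 0.15 for *frzb.S* and -0.24 to 1.08 for *frzb-1* at stage 9. At stage 10.5 it gave -0.17 to 2.30 for *dkk2.S*, -0.072 to 1.31 for LOC108712721 and -0.47 to 0.036 for *notum.L*, and for the change of *dkk1.L* in M/Z -1.74 to 0.62.

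The replicate numbers name pools of different embryos, and the deviations of same-numbered M/Z and +/Z pools correlated at -0.0149 within stage 9, -0.00893 within stage 10.5 and 0.173 and 0.113 across the stages. With the replicate block the counts were 4, 5 and 5 antagonists at stage 9, stage 10.5 and over both stages. The same fit called 2916, 3134 and 6032 of 25448 tested genes. The block brought *frzb-1* at stage 10.5 past the threshold (-1.95, adjusted p = 0.039) and took away *wnt5a.S* at stage 10.5 (0.053) and *nodal3.2.L* at stage 9 (0.056). The M/Z numbers were also crossed, an alternative chosen after seeing the data because of a correlation of -0.13. The M/Z change between stages then had 4 calls among the antagonists, against 8524 of 25448 tested genes.

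Over all genes, the stage alone gave 7130 calls at stage 9 and 1218 at stage 10.5, against 3040 and 3325 in the joint fit. The difference between stages had 12 calls, and 277 with DESeq2 or 915 without a filter, which gave 5494 at stage 10.5. At least 10 counts in every library gave 1894 at stage 9 and 6 for the difference. A minimum change gave 1827, 1600 and 2870 at stage 9, stage 10.5 and over both stages (against 6110) and 4752 for the M/Z change (against 8219). Leaving out 1 library gave 1076 to 3762 at stage 9, 1520 to 5227 at stage 10.5, 3418 to 7437 over both, 0 to 732 for the difference and 3332 to 9263 for the M/Z change. Library totals in place of TMM moved the median log2 fold change of all genes to 0.22 at stage 10.5 and -0.29 for the change in +/Z embryos, and the share of calls that were higher from 51.1% to 70.5% and from 50.1% to 34.4%, from 51.6% to 37.5% for the change in M/Z embryos and from 50.0% to 66.4% over both stages. With at least 10 counts in every library, the M/Z stage 9 pools stood at -7.04% and -1.96% on the stage axis.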

Other observations

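Other secreted antagonists related to the set were read after their values had been seen. *dand5*, a Cerberus-family gene whose product restrains Nodal signals in left-right patterning, was abundant at the blastula stage. *dand5.L* had 312 and 301 CPM in M/Z and 291 and 228 CPM in +/Z embryos at stage 9, and 50.6 and 93.7 CPM in M/Z against 23.5 and 27.1 CPM in +/Z embryos at stage 10.5. It fell between stages in both genotypes, by 3.36 on the log2 scale in +/Z (s.e. 0.28, adjusted p = 4.7e-05) and by 2.09 in M/Z embryos (s.e. 0.27, adjusted p = 0.00053). M/Z gastrulae were above controls (1.51, s.e. 0.26, adjusted p = 0.0064, edgeR), and replicate 2 of M/Z, the library nearer to stage 9, had the higher level. *dand5.S* had 36.8 and 54.3 CPM in M/Z and 31.9 and 23.5 CPM in +/Z gastrulae (0.71, s.e. 0.25, adjusted p = 0.085). The order of the M/Z gastrula pools was thus the opposite of that of *cer1.S*.

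The Frizzled-related entry *sfrpx.S* had 14.5 and 15.5 CPM in M/Z and 30.1 and 20.5 CPM in +/Z embryos at stage 9 (-0.75, s.e. 0.25, adjusted p = 0.086). At stage 10.5 it had 8.82 and 8.54 CPM in M/Z and 8.98 and 11.9 CPM in +/Z embryos (-0.27, s.e. 0.26, adjusted p = 0.52).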
